A study of Mus musculus with 3 samples.

Results

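Expression of 10 genes of ovulation and cumulus expansion was followed across ovaries of chemotherapy-treated and untreated mice: the epidermal growth factor (EGF)-like ligands Areg, Ereg and Btc, the prostaglandin synthase Ptgs2, the cumulus matrix genes Has2, Tnfaip6, Ptx3 and Vcan, the protease Adamts1 and the cell cycle regulator Rgcc. A probe counted as a member when its name on the array was one of these symbols or an older synonym. This gave 9 of 10 genes, each with 1 probe, out of 19459 named genes. Vcan stood on the array as Cspg2 and Rgcc as 1190002H23Rik, and Has2 was not analysed here because no probe carried its name. Of the 9 genes, 5 gave a signal above background on at least 1 array (Vcan, Rgcc, Ereg, Tnfaip6 and Adamts1) and 4 on none (Areg, Btc, Ptgs2 and Ptx3).

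The RNA came from whole ovaries of C57BL/6 mice in 4 groups. ADSC2 mice had premature ovarian failure (POF) brought on with cyclophosphamide, an alkylating drug, and received adipose-derived stem cells (ADSC, mesenchymal cells grown from fat) directly into both ovaries. ADSC1 mice had the same failure model and received the cells into a vein. POF mice received cyclophosphamide without cells, and WT mice received no treatment. Cyclophosphamide is thus common to the ADSC2, ADSC1 and POF groups, and WT alone lacks it. Ovaries were taken 1 week after treatment. The labels give no age, drug dose, number of animals, cell donor or stage of the oestrous cycle, and name no gonadotropin injection. Each of 3 arrays carried the RNA of 1 treated group in the red dye (Cy5) and WT RNA in the green dye (Cy3), without exchange of dyes. With 1 array per group there is no replicate check and no p-value, so precision is limited by how few arrays there are.

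Before ovulation, a surge of luteinizing hormone acts on the granulosa cells that line the follicle wall. These cells release EGF-like ligands, which carry the signal to the cumulus cells around the oocyte. Cumulus cells answer with Ptgs2, which starts prostaglandin synthesis, and with a matrix of hyaluronan made by Has2 and held together by the products of Tnfaip6 and Ptx3, so that the oocyte-cumulus complex swells. Versican, the proteoglycan encoded by Vcan, is part of this matrix and is cut by the metalloproteinase Adamts1. Most of these genes are known for a brief peak after the surge and low levels at other times.

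The start regions of 3 members are shown as context for the members: Areg as the ligand gene with the cyclic AMP response element, and Vcan and Rgcc as the members farthest from 0 in POF against WT and in ADSC2 against POF. The stretches are the 250 bases before a transcript start, from RefSeq (GRCm38.p6), 5′ to 3′ on the gene's strand. Those of Areg and Rgcc end at the edge of the annotated locus, and that of Vcan lies inside its locus, which extends 265 bases farther upstream. They lie at chr5:91139349-91139598 on the plus strand for Areg, at chr13:89742513-89742762 on the minus strand for Vcan and at chr14:79301636-79301885 on the minus strand for Rgcc. Capitals mark matches on either strand to the cyclic AMP response element TGACGTCA, its shorter form TGACG, the AP-1 motif TGANTCA, the E-box CACGTG and the TATAAA box.
Areg: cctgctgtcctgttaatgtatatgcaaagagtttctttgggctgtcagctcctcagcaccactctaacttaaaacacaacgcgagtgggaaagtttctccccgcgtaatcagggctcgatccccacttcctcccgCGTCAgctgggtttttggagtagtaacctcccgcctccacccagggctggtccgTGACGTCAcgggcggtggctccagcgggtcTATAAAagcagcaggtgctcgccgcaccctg
Vcan: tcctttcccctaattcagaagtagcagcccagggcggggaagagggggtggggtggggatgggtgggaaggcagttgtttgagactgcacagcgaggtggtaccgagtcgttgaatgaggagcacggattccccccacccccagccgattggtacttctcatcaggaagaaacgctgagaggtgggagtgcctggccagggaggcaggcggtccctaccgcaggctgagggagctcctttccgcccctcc
Rgcc: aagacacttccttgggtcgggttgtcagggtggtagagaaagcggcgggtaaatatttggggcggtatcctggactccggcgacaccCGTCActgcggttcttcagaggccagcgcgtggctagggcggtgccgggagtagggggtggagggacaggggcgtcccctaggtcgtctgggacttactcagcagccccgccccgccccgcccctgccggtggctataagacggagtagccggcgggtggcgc

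Start regions were matched for 8 of 10 members, with none for Ereg and Has2. TGACGTCA stood in 1 of the 8, Areg, beginning 61 bases before the start, and in 1.55% of 32851 start regions of the same length. Its shorter form, which is also part of the full element, stood in 4 of the 8 (Rgcc, Areg, Btc and Adamts1) and in 17.8% of all. TGANTCA stood in Tnfaip6 alone of the 8 and in 6.75% of all, and TATAAA stood in Areg and Adamts1 and in 12.4% of all. CACGTG stood in 0 of the 8 and in 6.02% of all. A match describes these letters only, and Areg was below background in all channels.

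Ovarian identity was checked with marker genes. Of 14 granulosa markers, 12 were above background in ADSC2, 12 in ADSC1 and 11 in POF ovaries, and 11 to 13 in WT. The anti-Müllerian hormone gene Amh was above background in no channel. Of 14 oocyte markers, 11, 13 and 10 were above background in ADSC2, ADSC1 and POF ovaries, against 11 to 12 in WT. On each array, 39.9% to 43.4% of 31920 gene probes were above background in at least 1 channel, and 0 of 768 spots named Blank were. Of 336 spots named Empty, however, 13 were above background on the ADSC2 array, 66 on the ADSC1 array and 90 on the POF array (3.87%, 19.6% and 26.8%), so passing this rule does not by itself show a transcript. The WT signal, the only one measured on more than 1 array, differed between arrays with an SD of 0.26 (ADSC2 and ADSC1), 0.27 (ADSC2 and POF) and 0.25 (ADSC1 and POF) log2 units over 9077 to 9457 genes. The labels do not say whether WT RNA came from 1 pool. Among genes as bright as each of the 5 measured members, this SD was 0.23 to 0.33, and it is set beside the values that follow, although it is the spread of a single channel and they are mostly ratios. Within an array, 48 spots of each of 4 control genes had an SD of the log2 ratio of 0.0669 to 0.168. This is the spread between spots of 1 gene, and the mean log2 ratios moved more. In ADSC2, ADSC1 and POF they were -0.42, -0.64 and -0.34 for M-GAPD and 0.14, 0.42 and -0.09 for M-RPL5. For M-LDHA they were -0.29, -0.15 and -0.05, and for M-ACTB -0.10, -0.20 and -0.20. In whole ovaries, fewer cells of a type and less RNA per cell cannot be told apart.

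**Figure D1:**
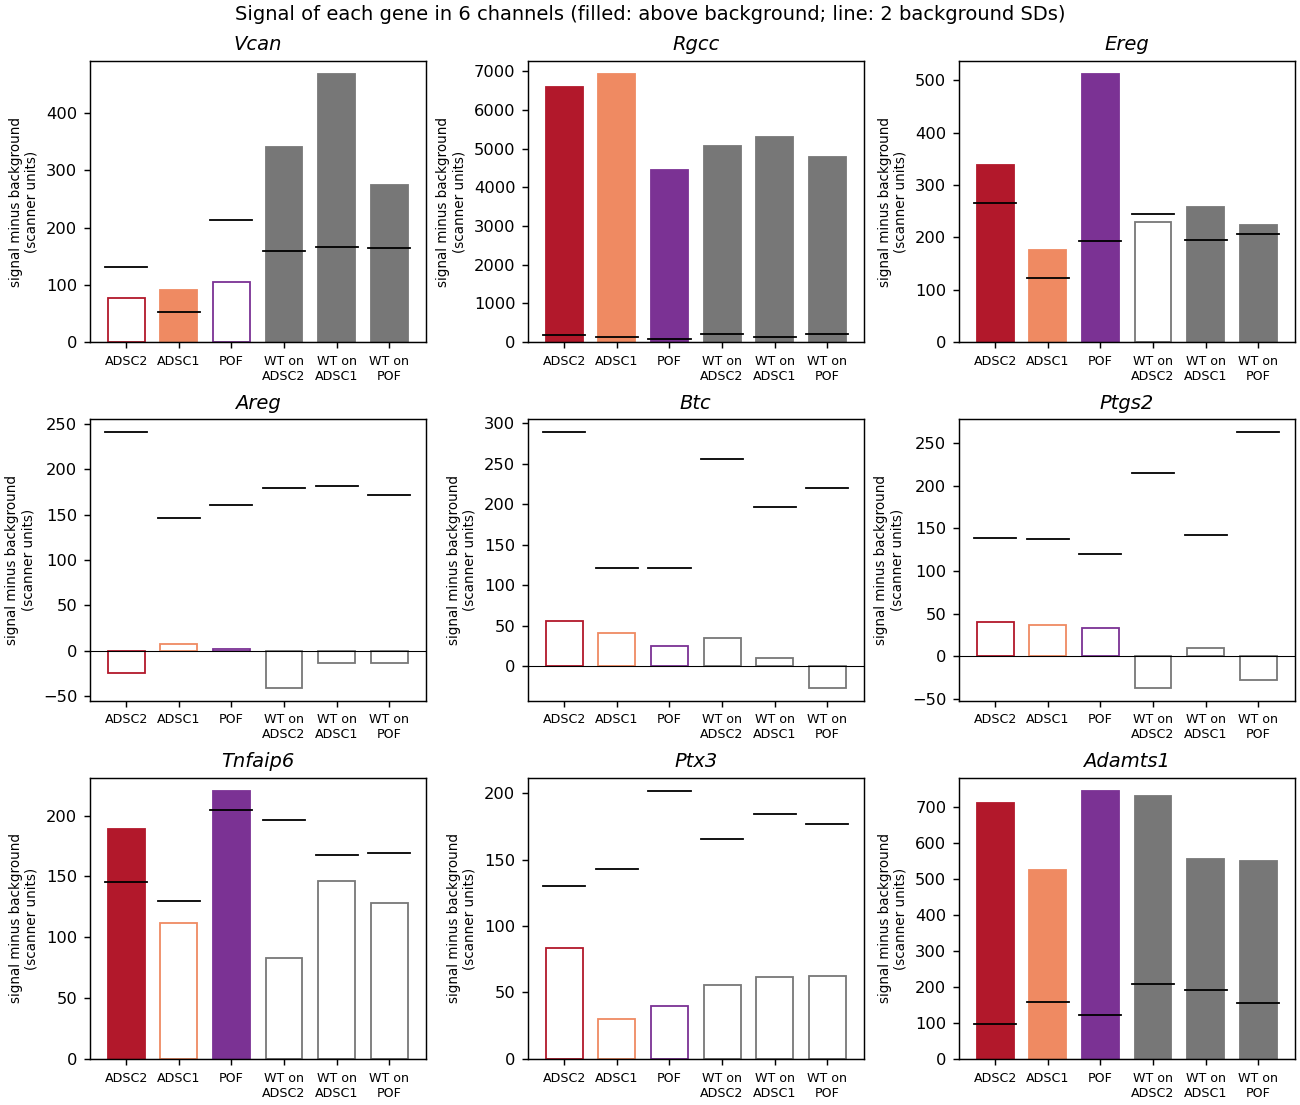
Spot signal minus local background (scanner units, vertical axis) of the 9 probes in the 3 treated groups (Cy5, coloured) and in WT on each array (Cy3, grey); filled bars are above background, open bars are not, and black lines mark 2 background SDs. The 3 WT bars of Vcan exceed its 3 treated bars, Ereg is highest in POF at 511 units, and Areg, Btc, Ptgs2 and Ptx3 have open bars only.

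Vcan, the versican gene, was lower in all treated ovaries than in WT. Its signal minus background was 76.5 scanner units in ADSC2, 91.5 in ADSC1 and 105 in POF ovaries, against 340, 468 and 274 units in WT on the same arrays. The treated and WT values did not overlap, but they are units of different dyes before normalization. How many genes separate in this way was not counted. The treated signal was above background in ADSC1 alone. The log2 ratio to WT was -1.31 in ADSC2, -1.58 in ADSC1 and -1.05 in POF. In ADSC1 it lay beyond the WT spread of 0.26 among genes of this brightness. In ADSC2 and POF, Vcan passed the filter only through its WT signal, which favours a low ratio. Those 2 values are therefore not set against the spread. After median centring of each array the POF value was -0.96, short of 2-fold. In ADSC1, where both channels were above background, Vcan was 2.99-fold lower. Its treated signal there passed a low spot limit of 53.2 units, and 72 of 336 Empty spots on that array were as bright. In ADSC2 Vcan was 2.48-fold and in POF 2.07-fold lower, from normalized single-channel means that are open to dye bias. Its treated signal lay under the spot's own limit in both (131 units in ADSC2, 213 in POF), so neither fold is a minimum. On the ADSC1 array 9 of 10156 genes measured were as low, Vcan included. On the other arrays Vcan was measured only through its WT signal and no rank is given. Empty spots reached its WT signal in 7, 20 and 58 of 336 cases on the ADSC2, ADSC1 and POF arrays. The 3 arrays may share WT RNA, so their low values are not independent.

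Vcan was the 1 member at least 2-fold lower than WT among 5 measured in ADSC2, 4 in ADSC1 and 5 in POF, and 0 members were at least 2-fold higher. In ADSC2 and POF, Vcan entered this count only through its WT signal. Tnfaip6 entered only through its treated signal, as did Ereg in ADSC2. After median centring Vcan in POF (-0.96) was no longer past 2-fold. Of all genes measured, 0.352% were at least 2-fold lower in ADSC2, 0.551% in ADSC1 and 0.928% in POF. The shares at least 2-fold higher were 2.68% in ADSC2, 2.0% in ADSC1 and 1.16% in POF. With each array centred on its median in place of loess, the counts of higher and lower genes were 442 and 22 in ADSC2 (266 and 35 after loess), 433 and 28 in ADSC1 (203 and 56) and 264 and 30 in POF (110 and 88). The authors' deposited values gave 571 and 224 in POF. Such centring moved the median of all measured genes up by 0.15, 0.17 and 0.32, and Vcan was then at -1.47, -1.69 and -1.29 relative to that median.

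In the treated channels, Vcan differed between treated groups by about the WT spread or less. The difference in log2 ratio was -0.26 for ADSC2 minus POF, with -0.30 in the treated and -0.04 in the WT channel; neither treated signal was above background and no fold is given. For ADSC1 minus POF the difference was -0.53, to which the treated channel contributed -0.26 and the WT channel 0.27. For ADSC2 minus ADSC1 it was 0.27, with -0.04 in the treated and -0.31 in the WT channel. The WT spread at this brightness was 0.25 to 0.29 in these comparisons.

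Ereg encodes epiregulin, an EGF-like ligand of granulosa cells. Its signal minus background was 338 units in ADSC2, 176 in ADSC1 and 511 in POF ovaries, against 230, 259 and 224 units in WT. Before normalization, the WT values lay close together, ADSC2 and POF were above them and ADSC1 was below, across different dyes. How many genes show such a pattern was not counted. The log2 ratio to WT was 0.36 in ADSC2, -0.43 in ADSC1 and 0.64 in POF, against a WT spread of 0.25 among genes of this brightness. WT was not above background on the ADSC2 array, where the estimate for Ereg was 1.28-fold higher in ADSC2. None of the 3 ratios reached 2-fold. Of 336 Empty spots, 7, 52 and 42 were as bright as Ereg in ADSC2, ADSC1 and POF, and 7, 42 and 72 were as bright as Ereg in WT on these arrays.

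The largest difference of any measured member between treated groups was that of Ereg in ADSC1 against POF. It was -1.07 in log2 ratio (2.10-fold lower in ADSC1), with -1.27 in the treated channel and -0.20 in the WT channel, beside a WT spread of 0.23 at this brightness. Of 9168 genes, 25 were as low. Ereg was the 1 of 4 members measured that was at least 2-fold lower in ADSC1 than in POF, against 0.349% of all genes, and 0 were higher, against 0.513%. Median centring turned the counts over all genes from 47 higher and 32 lower into 37 and 67, and the authors' deposited values gave 239 and 341. For ADSC2 minus POF the Ereg difference was -0.28, with -0.52 in the treated channel. For ADSC2 minus ADSC1 it was 0.79, with 0.75 in the treated and -0.04 in the WT channel, and 139 of 9457 genes were as high. The order of Ereg was therefore POF, ADSC2, ADSC1 from high to low, and the ADSC2 and POF log2 ratios differed by about the WT spread of 0.28. The local background around the Ereg spot was 99 units in ADSC2, 82 in ADSC1 and 134 in POF in the Cy5 channel, and its part in the difference was not tested.

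After loess, the median of the smooth muscle markers had the sign of Ereg on each array. So did 7, 6 and 6 of the 7 markers in ADSC2, ADSC1 and POF. No other marker list had a median with these signs on all 3 arrays, and smooth muscle is named here because it did. All 7 smooth muscle markers were above background in every channel, and their median log2 ratio was 0.61 in ADSC2, -0.39 in ADSC1 and 0.41 in POF. All 7 were lower in ADSC1 than in POF, by a median of -0.55. Their summed normalized signal was 62590 units in ADSC2, 42620 in ADSC1 and 56140 in POF, against 50730 to 54820 in WT. After median centring, and relative to all genes, their median was 0.84 in ADSC2, 0.00808 in ADSC1 and 0.57 in POF. Oviduct markers were highest in POF, as Ereg was, but did not follow it in ADSC1. Their median log2 ratio was 0.20 in ADSC2, 0.27 in ADSC1 and 0.81 in POF, with 4, 5 and 5 of 6 above background and 2 to 3 in WT. The oviduct gene Ovgp1, chosen after its values were seen, had a log2 ratio of 4.02 in POF. The part of these cells in the Ereg values was not tested.

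**Figure D2:**
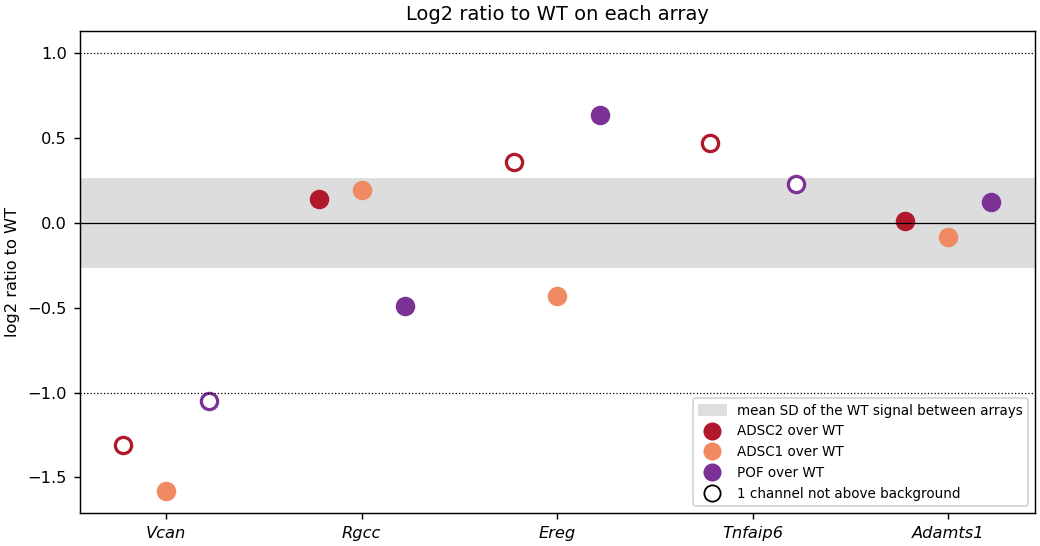
Log2 ratio to WT (vertical axis) of the 5 measured members on each array; filled circles have both channels above background, open circles 1, the grey band is the mean SD of the WT signal between arrays and dotted lines mark 2-fold. The 3 Vcan points lie below -1, Ereg runs from -0.43 in ADSC1 to 0.64 in POF, and Rgcc lies below 0 in POF alone.

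Areg encodes amphiregulin and Btc betacellulin, both ligands of the same receptor family as epiregulin. The signal of Areg was -25, 7 and 2 units relative to background in ADSC2, ADSC1 and POF, and -41, -13.5 and -13.5 in WT. A signal had to exceed 146 to 241 units at this spot to count as above background. Btc reached 56, 41.5 and 25.5 units in ADSC2, ADSC1 and POF, and 34.5, 10 and -26.5 in WT, below limits of 121 to 289. Neither ligand was detectable at this sensitivity, which does not show that it was absent.

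Rgcc, a regulator of the cell cycle that is also known as a gene induced in granulosa cells by the surge, was the brightest signal relative to its background among the members. It gave 6598 units in ADSC2, 6914 in ADSC1 and 4438 in POF ovaries, against 5058, 5301 and 4782 units in WT. Before normalization, and across different dyes, both ADSC groups were above all 3 WT values, and POF was below them. How many genes separate in this way was not counted. The log2 ratio after loess was 0.14 in ADSC2, 0.19 in ADSC1 and -0.49 in POF, beside a WT spread of 0.24. The POF value turned positive (0.05) after median centring and stood at -0.28 relative to the median of all genes, with 0.46 in ADSC2 and 0.44 in ADSC1.

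Against POF, Rgcc was higher in both ADSC groups under each setting tried. The difference in log2 ratio was 0.63 for ADSC2 minus POF (1.55-fold), with 0.45 in the treated and -0.18 in the WT channel. It was 0.68 for ADSC1 minus POF (1.6-fold), with 0.50 in the treated and -0.19 in the WT channel. Both exceeded the WT spread of 0.25 and 0.23 among genes of this brightness. Of 9077 genes, 288 were as high in the first comparison, and of 9168, 225 in the second. The comparisons share the POF array. The ADSC2 and ADSC1 arrays differed by -0.05, less than the spread of 0.25. Among 5 members measured, 0 were at least 2-fold higher or lower in ADSC2 against POF, where 0.650% and 0.154% of all genes were. Median centring turned the 59 higher and 14 lower genes of that comparison into 48 and 68, and the authors' deposited values gave 310 and 313. Against ADSC1, 0 of 4 members in ADSC2 were at least 2-fold higher or lower, against 0.634% and 0.328% of all genes. Median centring turned 60 higher and 31 lower genes into 60 and 48.

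**Figure D3:**
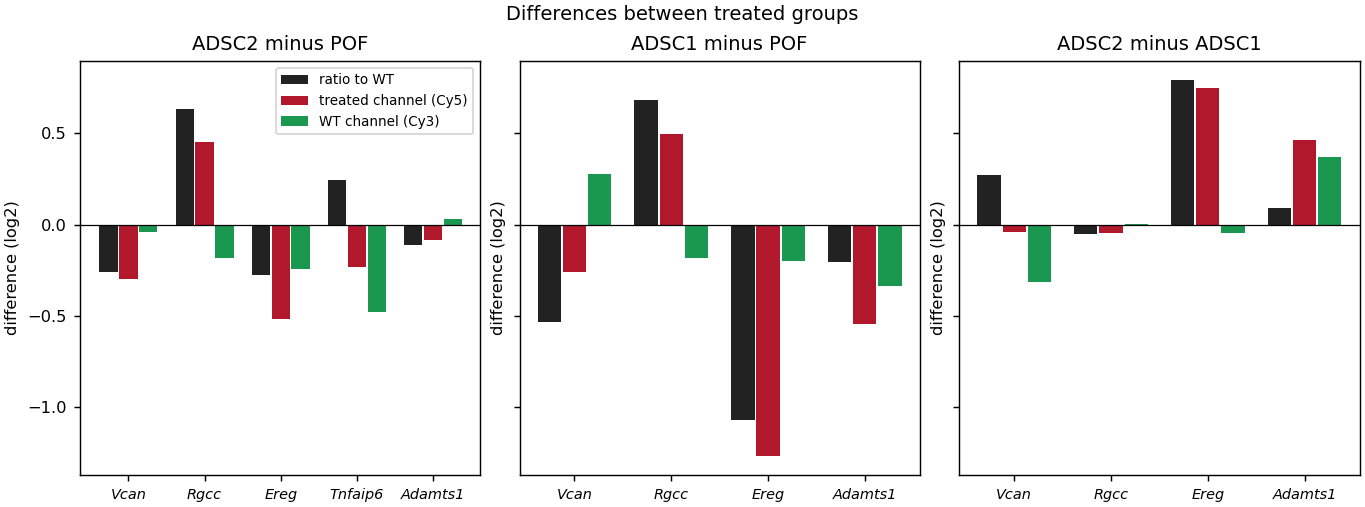
Differences between treated groups (log2 units, vertical axis) for the members measured on both arrays, as the difference of ratios to WT (black), of the treated Cy5 channels (red) and of the WT Cy3 channels (green). The red and black bars of Ereg are near -1 in ADSC1 minus POF, and those of Rgcc lie above 0 in both comparisons with POF.

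Tnfaip6 encodes TSG-6, the protein that transfers heavy chains onto hyaluronan in the cumulus matrix and that is also made by inflamed tissues and mesenchymal cells. Its signal was 189 units in ADSC2, 111.5 in ADSC1 and 220 in POF ovaries, against 83, 146 and 128 units in WT. It was above background in ADSC2 and POF only, where 9 and 74 of 336 Empty spots were as bright. The log2 ratio to WT was 0.47 in ADSC2 and 0.23 in POF. With the undetected WT signal set no lower than the lowest signal above background, the estimates were 1.2-fold and 1.17-fold higher. The POF log2 ratio did not exceed the WT spread of 0.26. In the treated channels, the estimates for Tnfaip6 were 1.66-fold higher in POF and 1.41-fold higher in ADSC2 than in ADSC1. The ADSC1 signal lay under its spot's limit of 130 units, so neither fold is a minimum. On that array 64 of 336 Empty spots were as bright as Tnfaip6 in ADSC1. The WT channel also moved, by -0.20 log2 units for ADSC1 minus POF and -0.28 for ADSC2 minus ADSC1. For ADSC2 minus POF the log2 ratio gave 0.25 and the treated channel -0.23, so no direction is given.

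Markers of inflammatory cells also differed between these groups. Of 18 macrophage markers, 15, 16 and 17 were above background in ADSC2, ADSC1 and POF and 12 to 15 in WT, with summed normalized signals of 125100, 93390 and 76010 units against 38490 to 42960 in WT. Of 10 neutrophil markers on the array, 7 were above background in each treated group and 0 to 1 in WT. Their summed signals were 9818, 4975 and 6853 units in ADSC2, ADSC1 and POF, against 1821 to 2023 in WT. The macrophage integrin Itgam and the neutrophil receptors Csf3r and Cxcr2 were above background in no channel. Of 9 mesenchymal stem cell markers, 5, 5 and 6 were above background in ADSC2, ADSC1 and POF and 5 in WT. The part of these cells in the Tnfaip6 and Ereg signals was not tested.

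Ptgs2 and Ptx3 were below background throughout. Ptgs2, the inducible prostaglandin synthase, gave 40, 36.5 and 33.5 units in ADSC2, ADSC1 and POF, and -37, 9.5 and -27.5 in WT, below limits of 119 to 263. Ptx3, the pentraxin that crosslinks the matrix, gave 83.5, 30 and 39.5 units in ADSC2, ADSC1 and POF, and 56, 62 and 62.5 in WT, below limits of 130 to 201. No fold is given for either.

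Adamts1, the metalloproteinase that cuts versican, was near WT on each array after loess. Its signal was 711 units in ADSC2, 524 in ADSC1 and 744 in POF, against 731, 556 and 550 units in WT, with overlapping ranges. The log2 ratio to WT was 0.01 in ADSC2, -0.08 in ADSC1 and 0.12 in POF, within the WT spread of 0.30. The ADSC2 and ADSC1 values changed sign in at least 1 of 8 alternatives. Between treated groups the differences in log2 ratio were -0.11 for ADSC2 minus POF, -0.21 for ADSC1 minus POF and 0.09 for ADSC2 minus ADSC1. The treated channel alone gave -0.54 for ADSC1 minus POF, with -0.34 in the WT channel, and 0.46 for ADSC2 minus ADSC1, with 0.37 in the WT channel. Median centring gave 0.43 in POF against WT, or 0.09 relative to all genes.

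Over the members measured, the median log2 ratio to WT was 0.14 in ADSC2 (5 members), -0.26 in ADSC1 (4) and 0.12 in POF (5), beside 0.00 to 0.01 over all genes. Between treated groups the members' medians were -0.11 for ADSC2 minus POF, -0.37 for ADSC1 minus POF and 0.18 for ADSC2 minus ADSC1. A member below background in WT was measured only where the treated signal was above it, so these medians cover a chosen few and the genes moved in different directions.

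Genes with the nearest pattern were sought among 7846 genes above background in both channels of all 3 arrays, by the root mean square difference of the 3 log2 ratios. Rgcc and Adamts1 met this condition. The nearest to Rgcc were Srek1ip1 (0.00498 log2 units away), Glyr1 (0.0421) and Gpatch1 (0.0482), and the nearest to Adamts1 were Gm6740 (0.00566), Tmem53 (0.0182) and Grina (0.0186). With 3 arrays, near matches among many genes are common, and these are descriptions only.

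The rest of the pathway was read from lists of 108 other ovulation genes, of which 106 were on the array and 69 were above background on at least 1 array. Their median log2 ratio was -0.13 over 64 genes in ADSC2, -0.16 over 65 in ADSC1 and -0.03 over 63 in POF. At least 2-fold higher were 1, 2 and 0 of these genes, and at least 2-fold lower 0, 3 and 2. Over all genes the shares were 2.68%, 2.0% and 1.16% higher and 0.352%, 0.551% and 0.928% lower. The 1 higher gene in ADSC2, Edn2, entered only through its treated signal, and its estimated fold of 1.83 is short of 2. Adcyap1, 1 of the 3 lower genes in ADSC1, entered only through its WT signal. Against POF, 0 of 61 genes in ADSC2 were past 2-fold either way, and in ADSC1 1 was higher and 1 lower, beside 0.650% and 0.154% of all genes in ADSC2 and 0.513% and 0.349% in ADSC1. Between ADSC2 and ADSC1, 3 of 60 were higher and 2 lower in ADSC2, beside 0.634% and 0.328% of all genes. Adcyap1 was also the 1 gene lower in ADSC1 than in POF, and 1 of the 3 higher in ADSC2 than in ADSC1. Ptges, 1 of the 2 lower in ADSC2, was above background in the treated channels only.

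**Figure D4:**
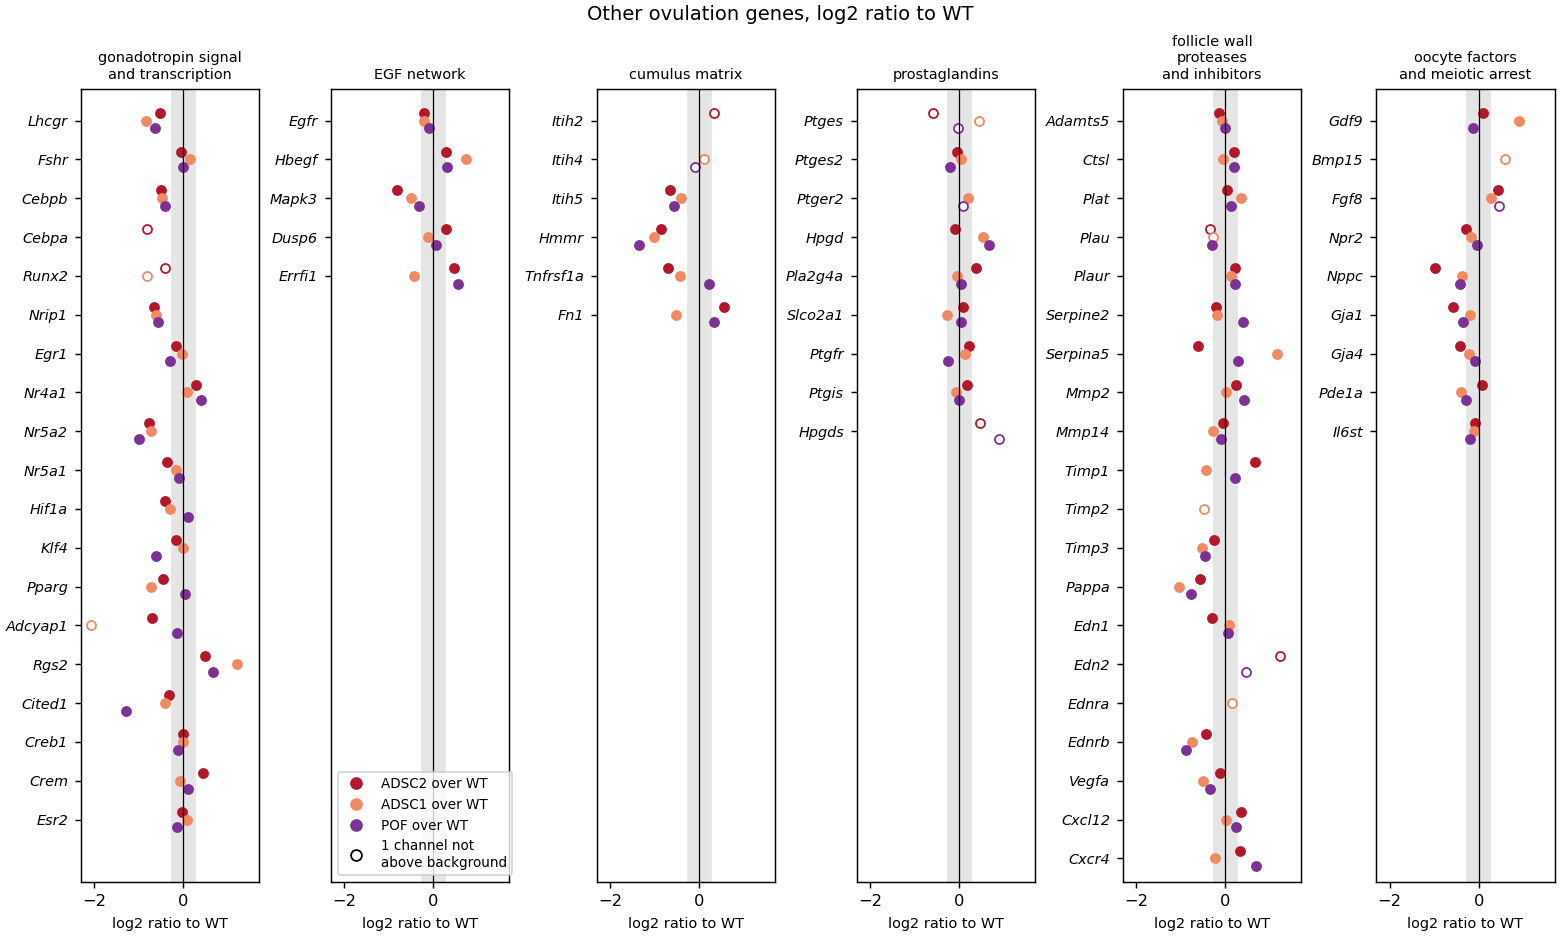
Log2 ratio to WT (horizontal axis) of the other ovulation genes measured, 1 of them left out, in 6 lists, for ADSC2, ADSC1 and POF; filled circles have both channels above background, open circles 1, and the grey band is the mean SD of the WT signal between arrays. Most points lie within 2-fold of WT, many of them outside the grey band, with Adcyap1 at -2.08 in ADSC1 and Hmmr at -1.34 in POF at the low end.

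In the list of gonadotropin signalling and transcription, 16 of 19 genes measured were below 0 in ADSC2, 14 of 18 in ADSC1 and 11 of 17 in POF, with medians of -0.36, -0.23 and -0.14. Over all genes 50.2%, 50.4% and 51.8% were above 0. After median centring, the median of all genes was 0.15 in ADSC2, 0.18 in ADSC1 and 0.33 in POF. Then 13 of 19, 9 of 18 and 7 of 17 genes of the list were below 0. These counts cannot be compared with those after loess, because 0 is no longer the middle of all genes. Relative to the median of all genes, the median of the list was still below 0, at -0.20 in ADSC2, -0.18 in ADSC1 and -0.17 in POF. Values after median centring are given from here on relative to the median of all genes. Nr5a2, the nuclear receptor that granulosa cells need for ovulation, had log2 ratios of -0.78, -0.72 and -0.998 in ADSC2, ADSC1 and POF, or -0.33, -0.37 and -0.70 after median centring. Lhcgr, the receptor of luteinizing hormone, had log2 ratios of -0.52, -0.84 and -0.63, or -0.32, -0.71 and -0.51 after median centring. Nrip1, the corepressor needed for follicle rupture, was at -0.67, -0.62 and -0.56, or -0.54, -0.50 and -0.45 after median centring. Lhcgr and Nrip1 were chosen after their values were seen. The median log2 ratio of the granulosa markers was -0.74 in ADSC2, -0.49 in ADSC1 and -0.61 in POF, and after median centring -0.58, -0.21 and -0.14. After loess, the summed normalized signal of the 14 granulosa markers was 70060 units in ADSC2, 97920 in ADSC1 and 104600 in POF. In WT it was 157700 to 166900 units. Inha and Inhba, the brightest of the 14, weigh most in these sums. In POF they gave 36000 and 37750 units before normalization, against 34750 and 39950 in WT. Their log2 ratios in POF were -0.61 and -0.75, or -0.11 and -0.24 after median centring. The part of granulosa cells in the values of the list was not tested.

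Adcyap1, the neuropeptide PACAP that the surge induces in granulosa cells, gave 494 units in ADSC2, 126 in ADSC1 and 693 in POF, against 909, 863 and 638 units in WT. It was above background in all channels but ADSC1. In ADSC1 it was an estimated 4.23-fold lower than WT and 3.80-fold lower than POF, and neither fold is a minimum. Its log2 ratios in ADSC2 and POF were -0.70 and -0.14. Cited1, a transcriptional coactivator, was at -0.33, -0.41 and -1.29 in ADSC2, ADSC1 and POF, and at -0.04, -0.15 and -1.09 after median centring. It was higher than POF by 0.96 in ADSC2 and 0.88 in ADSC1. The progesterone receptor gene Pgr and Runx1, both induced by the surge, were above background in no channel.

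In the EGF network, 6 of 14 genes were measured in each comparison with WT and 0 were past 2-fold. The receptor Egfr was at -0.20, -0.20 and -0.10 in ADSC2, ADSC1 and POF and was chosen after its values were seen. Errfi1, a feedback inhibitor of that receptor, gave 724 units in ADSC2, 406 in ADSC1 and 741 in POF, against 503, 578 and 374 units in WT. Its log2 ratios of 0.47, -0.43 and 0.56 had the same signs as those of Ereg on each array, and kept them after median centring (0.40, -0.48 and 0.51). The difference of Errfi1 was -0.99 for ADSC1 minus POF and 0.91 for ADSC2 minus ADSC1. The kinase gene Mapk3 was at -0.82 in ADSC2, -0.51 in ADSC1 and -0.33 in POF, and at -0.61, -0.28 and -0.12 after median centring.

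In the cumulus matrix list, 6 of 15 genes on the array were above background on at least 1 array, and the hyaluronan genes Has1, Hapln1 and Cd44 on none. The hyaluronan receptor gene Hmmr, which also serves the mitotic spindle, gave 1006 units in ADSC2, 1086 in ADSC1 and 916 in POF, against 1948, 2265 and 2040 units in WT. Its log2 ratios were -0.86, -1.01 and -1.34, or -0.84, -0.96 and -1.28 after median centring. Itih5 was at -0.65, -0.40 and -0.55 in ADSC2, ADSC1 and POF, and at -0.38, -0.18 and -0.36 after median centring. The receptor Tnfrsf1a was at -0.70, -0.43 and 0.23, with -0.93 for ADSC2 minus POF. The fibronectin gene Fn1, chosen after its values were seen, was at 0.55, -0.52 and 0.33 and was 1.07 higher in ADSC2 than in ADSC1.

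Of 13 prostaglandin genes on the array, 9 were above background on at least 1 array, and Ptgs1, Ptger1, Ptger3 and Ptger4 on none. Hpgd, which degrades prostaglandins, gave 1784 units in ADSC2, 2870 in ADSC1 and 3240 in POF, against 1894, 1875 and 1577 units in WT. Its log2 ratios were -0.10, 0.53 and 0.67, with a difference of -0.77 for ADSC2 minus POF. Hpgds, the prostaglandin D synthase of blood-derived cells, was above background in ADSC2 and POF only, with estimates of 1.25-fold and 1.87-fold higher than WT. Ptges, the inducible prostaglandin E synthase, gave 87, 272 and 196 units in ADSC2, ADSC1 and POF, each above background, against 168, 152 and 156 units in WT, none of them above background.

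Among proteases and their inhibitors at the follicle wall, 20 of 26 genes were above background on at least 1 array. Serpina5, a serine protease inhibitor, gave 422 units in ADSC2, 1928 in ADSC1 and 888 in POF, against 730, 784 and 580 units in WT, and was 1.76 log2 units lower in ADSC2 than in ADSC1. Edn2, the endothelin that contracts the follicle wall, was above background in ADSC2 and POF only, with estimates of 1.83-fold and 1.38-fold higher than WT. Pappa, a protease of IGF binding proteins, was at -0.56, -1.03 and -0.77 in ADSC2, ADSC1 and POF, with both probes below 0 on each array. The endothelin receptor Ednrb was at -0.44, -0.74 and -0.89, but its 2 probes gave -0.88 and 0.01 in ADSC2. Timp1, an inhibitor of metalloproteinases chosen after its values were seen, was at 0.67, -0.43 and 0.22 and 1.10 higher in ADSC2 than in ADSC1.

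In the list of oocyte factors and meiotic arrest, 9 of 14 genes were above background on at least 1 array. Gdf9, the oocyte factor that enables cumulus expansion, gave 1710 units in ADSC2, 3438 in ADSC1 and 1170 in POF, against 1582, 1712 and 1060 units in WT. It was 1.04 higher in ADSC1 than in POF and was chosen after its values were seen. The oocyte markers measured (11, 14 and 11 of 14) had median log2 ratios of -0.15 in ADSC2, 0.56 in ADSC1 and -0.18 in POF, and 11 of 11 measured on both arrays were higher in ADSC1 than in POF. The part of oocyte number in the Gdf9 value was not tested. Nppc, the granulosa peptide that keeps the oocyte in meiotic arrest, was at -0.99, -0.38 and -0.43 in ADSC2, ADSC1 and POF, with -0.56 for ADSC2 minus POF. Fgf8 was at 0.44, 0.28 and 0.45, and Pde1a at 0.07, -0.40 and -0.30.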

How the data were processed

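Scanner output was deposited for 3 arrays. Per the file headers it gives a median spot intensity in Cy5 and in Cy3, with median and SD for the background around the spot. The series' design text names LuxScan 3.0. A flag score of 100 or -100 per spot is deposited without a stated meaning, and spots of both values were used. The authors' deposited log2 ratios of Cy5 over Cy3 served as an alternative. How they were normalized is not given in the sources used here. Over bright spots they followed the scanner ratio with r of 0.943 (ADSC2), 0.955 (ADSC1) and 0.966 (POF), and their medians were 0.02, 0.01 and 0.04, which sets log2 scale and direction and leaves the centring method unknown. Intensities were corrected with normexp (offset 50) and log2 ratios normalized by loess within each array (limma 3.58.1, R 4.3.3), with control spots given no weight. Single-channel values were then quantile-normalized on mean intensity. The steps were tested on simulated data in which only bright probes were changed. That test did not cover signals as dim as those of Vcan, Ereg and Tnfaip6. Python 3.11.15 with pandas 2.3.3 and numpy 2.4.6 built the tables, and matplotlib 3.10.9 drew the plots.

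Array names were matched to current symbols through RefSeq names (GRCm38.p6), 14166 as symbols and 3898 as synonyms, with 1454 kept. Probes of a gene were averaged. A signal counted as above background when the spot median exceeded the local background by more than 2 background SDs. A gene was measured on an array when 1 channel was. Where 1 side was not above background, the fold was estimated from normalized single-channel signals. The brighter signal was set against the dimmer one or, if higher, the lowest signal above background in that channel. A spot's own limit can be higher, so such a fold is an estimate and not a minimum. An absolute log2 value of 1 (2-fold) counted as a call, and 0 p-values were computed. Named beside the members were the 2 genes per list with the largest absolute values in ADSC2 against POF and in POF against WT, and others where stated; 1 gene that this rule names is not reported here. Members and lists were chosen with earlier results of these data known. Alternatives were median centring, the authors' values, offset 16, subtraction with a floor of 50, other filters, the brightest probe and the Cy5 channel alone.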

Additional observations from a re-analysis of the deposited data

Results flagged for a closer look

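Ereg stood on opposite sides of WT in different treated groups, by more than the spread of the WT signal between arrays. Its log2 ratio was 0.36 in ADSC2 and -0.43 in ADSC1, a difference of 0.79. It was -0.43 in ADSC1 and 0.64 in POF, a difference of -1.07. With 1 array per group these differences were not tested. The Ereg spot carried a flag of -100 on the ADSC2 and ADSC1 arrays and of 100 on the POF array, and its WT signal was not above background on the ADSC2 array.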

How the results depend on the processing

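No paired analysis was possible because each group has 1 array. Of 51 recomputed medians of the members, 48 stayed within the SD of the WT signal between arrays. The others were the median of POF against WT with only spots flagged 100 (-0.18), and that of ADSC2 against POF with both channels above background (0.26) and with only spots flagged 100 (0.26), where 4, 2 and 2 members were left. Of 207 recomputed member values, 184 stayed within that SD and 0 past 2-fold changed sign. Vcan ranged from -2.39 to -1.31 in ADSC2, from -2.65 to -1.51 in ADSC1 and from -1.81 to -0.96 in POF. Ereg in ADSC1 against POF ranged from -1.55 to -1.07. Rgcc ranged from 0.45 to 0.64 in ADSC2 and from 0.50 to 0.71 in ADSC1 against POF. Counts of genes past 2-fold depended on the settings. Over 6 alternatives, higher genes ranged from 166 to 728 in ADSC2, from 151 to 664 in ADSC1 and from 69 to 571 in POF against WT, and lower genes from 22 to 181, from 28 to 196 and from 30 to 224. The ranges were 37 to 310 and 8 to 313 in ADSC2 against POF, 37 to 239 and 25 to 341 in ADSC1 against POF, and 40 to 379 and 25 to 265 in ADSC2 against ADSC1. The cause was not tested. The SD of the WT signal was also computed with no filter (0.30 to 0.32) and with both channels above background (0.23 to 0.25), which was chosen after seeing the data, as were the list and pathway gene values under other scalings. Leaving out a replicate could not be done. Signal over background limits Areg, Btc, Ptgs2 and Ptx3 throughout.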

Other observations

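The authors' deposited values give large ratios for members whose spots were not above background in either channel. Ptgs2 is listed at 3.63 in ADSC1 (12.4-fold), where the spot stood 36.5 units over background in ADSC1 and 9.5 units in WT. Btc is listed at 3.35 in ADSC1, with 41.5 units in ADSC1 and 10 in WT. Areg is listed at -3.68 in POF, where the signal was 2 units over background in POF and 13.5 units below it in WT. After normexp and loess the same log2 ratios were 0.16 for Ptgs2, 0.20 for Btc and -0.11 for Areg.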
